A study of Mus musculus with 10 samples.

Results

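The proteasome is the protein-degrading machine of the cytosol and nucleus, and the genes described here are its subunits, activators, inhibitor and assembly factors. They were taken as every row of the expression files whose Ensembl identifier maps to a protein-coding mouse gene with a symbol of Psma, Psmb, Psmc, Psmd, Psme, Psmf or Psmg followed by a digit (GRCm38, GENCODE M21). This gave 50 genes among the 47719 identifiers of each file. Of these, 48 reached a mean of 1 FPKM over all libraries and were tested. The other 2 are the testis form Psma8, listed at 0 in all 10 libraries, and the thymus form Psmb11, listed at 0 in all but IgM replicate 2, which held 0.0171 FPKM.

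RNA-seq was made from 2 sorted groups of mouse splenic plasma cells, the antibody-secreting end stage of the B cell lineage, the IgM group with 5 libraries and the IgG1 group with 5. Both groups came from congenically marked donor B cells carrying S1PR2-CreERT2, a tamoxifen-inducible Cre driven from a gene of germinal centre B cells, the tdTomato reporter Ai14, and B1-8germ, an antibody heavy chain. The donor cells were placed in wild-type hosts, which keep B cells of their own. Immunization with the antigen NP-CGG in alum took place on day 0, tamoxifen followed on day 5 and again on day 6, and donor tdTomato+ plasma cells of either isotype were sorted on day 10, so that the groups differ by the isotype gate alone as far as the labels say. The labels do not give the age of the animals, nor whether each library of a group is from an animal of its own. The p-values therefore measure the spread between these libraries, which may be technical.

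As background, the 20S core of the proteasome is a barrel of stacked rings, with outer alpha rings that gate the entry and inner beta rings that cut the substrate. The 19S cap recognises ubiquitin-tagged proteins, removes the tag, unfolds the substrate and feeds it into the barrel. Immune cells also build an immunoproteasome, in which Psmb8, Psmb9 and Psmb10 take the catalytic places of Psmb5, Psmb6 and Psmb7. Plasma cells make and fold very large amounts of antibody, and misfolded chains that leave the endoplasmic reticulum are degraded by the proteasome.

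Values are FPKM, a gene's fragments divided by its transcript length and by the size of the library, so they are shares of a library and not amounts per cell. Depth, read from the spacing of the lowest FPKM values, was about 26600000 to 30900000 fragments in the IgM libraries and 26200000 to 38000000 in the IgG1 libraries. More genes were above 0 in the IgM libraries (15121 to 15800) than in the IgG1 libraries (13286 to 13961). All 7 plasma cell markers were present, and their summed level was 40101 to 44321 FPKM in IgM and 23480 to 26919 FPKM in IgG1, most of it Jchain. At a limma adjusted p under 0.05, 6 of them were lower in IgG1, Tnfrsf17 the most (log2 -1.49) and Sdc1 and Irf4 only narrowly. Xbp1 was higher (log2 0.13, limma adjusted p = 0.0104). The list is too short to read against the share of all genes tested that were lower (20.2%). Summed over their lists, the 8 B cell markers reached 121 to 148 FPKM in IgM and 84.2 to 103 FPKM in IgG1. The 6 myeloid markers reached 30.9 to 36.7 FPKM in IgM and 12.4 to 18.8 FPKM in IgG1, mostly Cd68, with S100a8 and S100a9 at 0 in every library. Cd68 alone fell (31.2 to 12.9 FPKM), while the means of Itgam (0.599 and 1.47 FPKM), Lyz2 (1.09 and 1.62 FPKM) and Csf1r (0.231 and 0.582 FPKM) were higher in IgG1 without passing the test or, for Csf1r, being tested. Summed T cell markers were at 4.49 FPKM or less; among them Cd4 was higher in IgG1 (0.280 and 1.87 FPKM, limma adjusted p = 0.00458) and Trac lower (2.37 and 0.201 FPKM, limma adjusted p = 0.000341). The summed erythroid markers were at 4.62 FPKM or less, dendritic markers at 3.61 with Itgax at 0, platelet markers at 2.46 and NK markers at 0.398 with Ncr1 at 0. The part of these differences in the proteasome results was not tested, and in sorted bulk samples fewer cells of a type and less RNA per cell cannot be told apart.

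Most proteasome genes had higher transcript levels in IgG1 than in IgM plasma cells. Of the 48 members tested, 37 were higher in IgG1, 2 were lower (Psme4 and Psme2b) and 9 did not pass (limma on log2 of FPKM plus 1, Benjamini-Hochberg adjusted p under 0.05). Among all 9900 genes tested, 18.1% were higher and 20.2% lower by the same rule. Either call was made for 38.3% of them. Restricted to the 3448 genes whose mean was 20 FPKM or more, the level of most members, 36.6% were higher and 20.7% lower. The median log2 difference, IgG1 minus IgM, was 0.33 over the members and -0.05 over all genes tested. Every IgG1 library lay above every IgM library for 29 members and below for 1 member (Psme2b), against 13.1% and 13.3% of all genes tested, and the groups overlapped for 18 members. The steps in level were small, since the ratio of mean FPKM, IgG1 over IgM, ran from 0.498 to 1.75. The median coefficient of variation of the members between libraries of a group was 6.89% in IgM and 8.53% in IgG1. It was 17.7% and 18.9% for all genes tested, whose median level was 11.1 FPKM, against 115 FPKM for the members. The 20S assembly factors Psmg1 to Psmg4, at group means of 20.5 to 40.5 FPKM, had medians of 15.4% and 18.9%. Genes of matched level were not compared for this variation or for the share without overlap. Scaling moved the split of all called genes: 1791 were higher and 2001 lower as tested, 1474 and 2415 with a common library total without immunoglobulin genes, 2182 and 1510 after quantile normalization, and 2188 and 1319 once dependence on transcript length and GC content was removed.

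**Figure D1:**
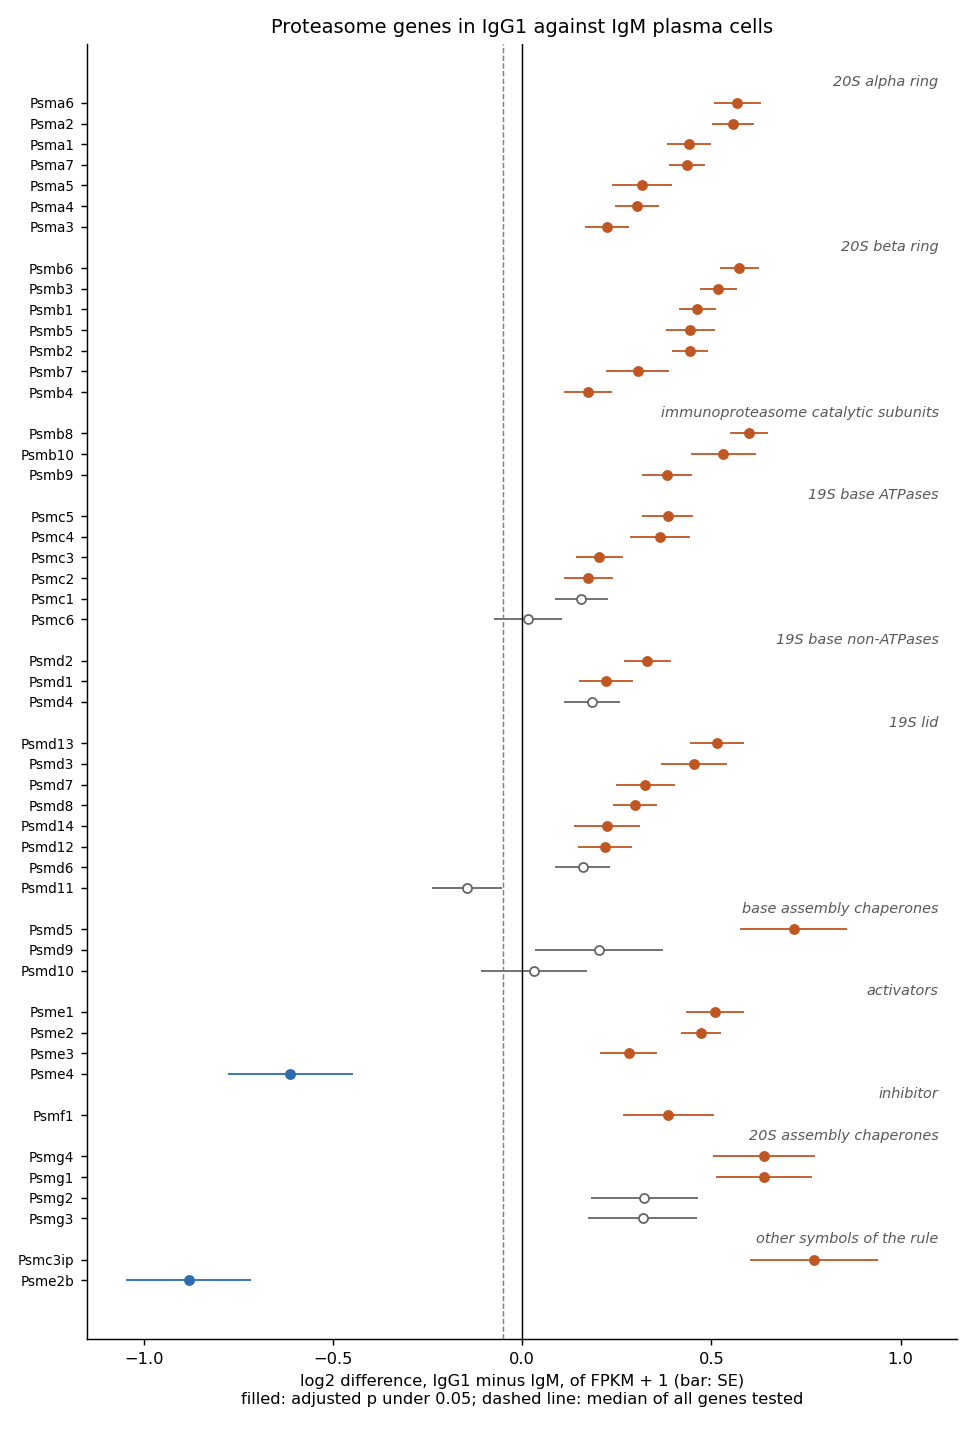
Log2 difference in FPKM plus 1, IgG1 minus IgM, of the 48 members tested (x axis; bars are SE, n = 5 libraries a group), grouped by role. Filled points passed the adjusted p of 0.05, orange for higher and blue for lower in IgG1, and the dashed line is the median of all genes tested (-0.05); all 14 genes of the 20S rings lie to the right of 0.

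All 14 ring genes of the 20S core were higher in IgG1. The 7 alpha subunits had log2 differences of 0.22 to 0.57 and a median of 0.43, and the 7 beta subunits of the standard core had differences of 0.17 to 0.57 and a median of 0.44. The largest steps in the alpha ring were those of Psma6 (IgM 117 ± 5.20, IgG1 174 ± 12.9 FPKM; SD, n = 5; log2 0.57) and Psma2 (266 ± 10.6 and 393 ± 31.1 FPKM; log2 0.56), and in both genes the groups did not overlap. Psma2 overlaps AW209491 on the same strand, a gene at 20.5 in IgM and 15.5 FPKM in IgG1. Psma7 was the most abundant alpha transcript, at 384 ± 21.4 in IgM and 519 ± 19.2 FPKM in IgG1. Psma3 (log2 0.22) and Psma5 (log2 0.32) passed the test with overlapping groups. Among the structural beta subunits, which carry no active site, Psmb3 was at 233 ± 7.25 in IgM and 334 ± 14.6 FPKM in IgG1 (log2 0.52, SE 0.05, limma adjusted p = 1.81e-07). Psmb1 (log2 0.46) and Psmb2 (log2 0.44) had similar differences. Psmb4 had the smallest difference of the core, at 120.2 ± 7.23 and 136 ± 7.60 FPKM (log2 0.17, limma adjusted p = 0.0382). That call was lost when any of 7 of the 10 libraries was left out (IgM replicates 1, 2 and 3, IgG1 replicates 1, 2, 3 and 5), with adjusted p of 0.0548 to 0.108, and under 13 of 21 other settings in all (adjusted p up to 0.271).

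The subunits of the core are built in equal numbers in each barrel, but their transcript levels were not equal. Within the 14 ring genes the highest mean FPKM was 6.34 times the lowest in IgM and 7.59 times in IgG1, with Psmb6 highest and Psmb7 lowest in both. FPKM is scaled by length, but the transcript lengths the authors used are not given, and whether levels compare between genes was not tested.

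The constitutive catalytic subunits were all higher in IgG1. Psmb5 carries the chymotrypsin-like activity and is the main target of proteasome inhibitor drugs. Its level was 158, 155, 160.4, 153 and 146 FPKM in IgM replicates 1 to 5, and 221, 197, 184, 227 and 228 FPKM in IgG1 replicates 1 to 5. All IgG1 libraries were above all IgM libraries, with IgG1 replicate 3 the lowest of them, and the log2 difference was 0.44 (SE 0.06, limma adjusted p = 2.88e-05). Psmb6, the caspase-like subunit, was at 407, 397, 435, 427 and 383 FPKM in IgM and 623, 574, 599, 672 and 586 FPKM in IgG1. Its groups lay far apart, and the log2 difference of 0.57 (SE 0.05, limma adjusted p = 1.12e-07) was the largest of the beta ring. Psmb7, the trypsin-like subunit, was at 65.5, 61.5, 67.7, 60.6 and 68.0 FPKM in IgM and 72.6, 82.1, 70.4, 94.6 and 82.7 FPKM in IgG1. The groups came close without overlapping, with IgG1 replicates 1 and 3 only a little above the highest IgM library. The log2 difference was 0.31 (SE 0.08, limma adjusted p = 0.00734), and the call was lost without IgG1 replicates 4 and 5 together (adjusted p = 0.0682). Psmb7 overlaps Nek6 on the opposite strand, a gene whose own level was 10.0 FPKM in IgM cells and 19.5 FPKM in IgG1 cells.

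The inducible catalytic subunits, which interferon signals raise in many cell types, were also all higher in IgG1, with a median log2 difference of 0.53. Psmb8 replaces Psmb5 and lies in the major histocompatibility region of chromosome 17 (34197721 to 34201454, plus strand). It was at 459, 423, 432, 399.7 and 436 FPKM in IgM and 628, 635, 622, 724 and 654 FPKM in IgG1. Every IgG1 library stood well above the IgM range, and IgG1 replicate 4 was the highest (log2 0.60, SE 0.05, limma adjusted p = 5.54e-08). Psmb9 replaces Psmb6 and lies in the same region (chromosome 17, 34181987 to 34187764, minus strand). Its level was 148, 165, 190.4, 167 and 156 FPKM in IgM and 219, 211, 216, 231 and 199 FPKM in IgG1. IgM replicate 3 came nearest to the IgG1 range but stayed below it (log2 0.38, SE 0.07, limma adjusted p = 0.000187). Psmb9 overlaps Tap1 on the opposite strand. Psmb10, on chromosome 8, replaces Psmb7 and was at 47.0, 44.6, 41.3, 45.0 and 49.7 FPKM in IgM and 61.7, 61.4, 72.1, 75.4 and 61.3 FPKM in IgG1. The groups did not overlap (log2 0.53, SE 0.09, limma adjusted p = 8.33e-05).

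**Figure D2:**
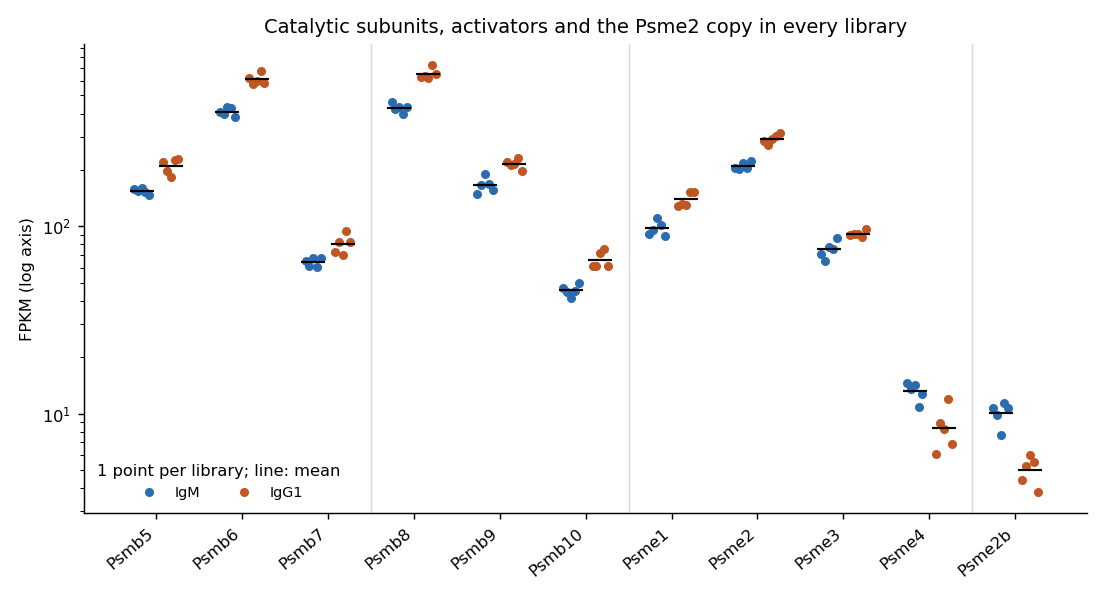
FPKM on a log axis of the constitutive (Psmb5 to Psmb7) and inducible (Psmb8 to Psmb10) catalytic subunits, the activators and Psme2b, with 1 point per library (blue IgM, orange IgG1) and lines at the means of 5 libraries. The IgG1 points lie above the IgM points for all 6 catalytic subunits and for Psme1 to Psme3, below for Psme2b, and overlap for Psme4.

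Both kinds of catalytic subunit were higher in IgG1, and the ratio between them overlapped between the groups. The summed inducible subunits were at 641 ± 19.9 in IgM and 934 ± 54.1 FPKM in IgG1, and the summed constitutive subunits at 629 ± 25.2 and 902 ± 57.8 FPKM (SD, n = 5). Their ratio was 1.02 ± 0.0446 in IgM, with a range of 0.955 to 1.07, and 1.04 ± 0.0312 in IgG1, with a range of 0.993 to 1.07, so the ranges overlapped almost fully. The pairs that share a catalytic place differed among themselves. Psmb8 over Psmb5 was 2.79 ± 0.154 in IgM and 3.10 ± 0.235 in IgG1, Psmb9 over Psmb6 was 0.403 ± 0.0275 and 0.353 ± 0.0118, and Psmb10 over Psmb7 was 0.705 ± 0.0543 and 0.832 ± 0.116. The ranges of all 3 pair ratios overlapped between the groups, for Psmb8 over Psmb5 at 2.62 to 2.98 in IgM and 2.85 to 3.38 in IgG1. The other ranges met only at their edges. Psmb9 over Psmb6 ran from 0.364 to 0.438 in IgM and 0.339 to 0.368 in IgG1, and Psmb10 over Psmb7 from 0.609 to 0.743 and 0.741 to 1.02. These sums and ratios are given with no test.

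In the 19S cap the count depended on the processing. Of its 17 subunits with a Psm symbol, 12 were higher in IgG1, 0 lower and 5 did not pass. Their median log2 difference was 0.22, beside 0.44 over the 14 ring genes. The lid subunit Sem1 and the ubiquitin receptor Adrm1 lack the symbol and were counted apart. The number higher was 7 with a common library total without immunoglobulin genes, with quantile normalization or with no filter on low values, and 8 with eBayes without trend and robust or without IgG1 replicates 4 and 5 together. Among the 6 ATPases of the base, which unfold the substrate, 4 were higher. Psmc5 (IgM 82.5 ± 6.55, IgG1 108 ± 3.41 FPKM, log2 0.38) was the only ATPase whose groups did not overlap. Psmc4 was at 146 ± 7.95 and 189 ± 24.8 FPKM (log2 0.36). Psmc3 and Psmc2 passed with log2 differences of 0.20 and 0.17. The Psmc2 call was lost when any of 6 libraries was left out (IgM replicates 1, 2 and 5, IgG1 replicates 3, 4 and 5; adjusted p of 0.0652 to 0.098), and under 12 settings in all (up to an adjusted p of 0.221). The Psmc3 call was lost under 6 of the other settings, such as a common library total without immunoglobulin genes (adjusted p = 0.0899). Psmc1 (log2 0.16, adjusted p = 0.0905) and Psmc6 (log2 0.02, adjusted p = 0.911) did not pass.

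Of the non-ATPase subunits of the base, the scaffold Psmd2 was at 113 ± 3.53 in IgM and 143 ± 10.47 FPKM in IgG1 (log2 0.33, limma adjusted p = 0.000404). The other scaffold, Psmd1, was at 63.8 ± 4.12 and 74.5 ± 4.03 FPKM (log2 0.22), and its call was lost without IgM replicate 4 (adjusted p = 0.0672) or IgG1 replicate 2 (adjusted p = 0.062). It was also lost with a common total without immunoglobulin genes (adjusted p = 0.130), quantile normalization (adjusted p = 0.114) and no filter (adjusted p = 0.0536). The ubiquitin receptor Psmd4 did not pass, at 81.5 ± 4.25 and 92.9 ± 9.02 FPKM (log2 0.18, limma adjusted p = 0.0571). IgG1 replicate 1, at 109 FPKM, was the highest of its libraries. Psmd4 passed without IgG1 replicate 2 (adjusted p = 0.0446) or without IgM replicate 5 (adjusted p = 0.0472).

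In the lid, which removes ubiquitin chains, 6 of the 8 genes with a Psm symbol were higher and 2 did not pass. Psmd13 had the largest difference, at 74.2 ± 4.12 in IgM and 107 ± 8.59 FPKM in IgG1 (log2 0.51, limma adjusted p = 1.89e-05), and Psmd3 followed with 52.8 ± 6.68 and 72.3 ± 2.496 FPKM (log2 0.45). Psmd7 (log2 0.33), Psmd8 (log2 0.30) and Psmd12 (log2 0.22) were also higher with groups that did not overlap. Psmd14 is the deubiquitinase of the lid and passed narrowly, at 105 ± 10.7 and 123 ± 14.9 FPKM (log2 0.22, limma adjusted p = 0.0492). It lost its call without any of IgM replicates 1 to 4 or IgG1 replicates 3 or 5 (adjusted p of 0.0521 to 0.138), and under 11 settings in all, with adjusted p up to 0.212. Psmd12 lost its call without IgM replicate 4, IgG1 replicate 4 or IgG1 replicate 5 (adjusted p of 0.0552 to 0.0658), and under 8 settings in all, with adjusted p up to 0.211. Psmd11 was the only 19S gene with a negative difference, at 79.3 ± 7.46 and 71.9 ± 9.43 FPKM (log2 -0.15, limma adjusted p = 0.234), and Psmd6 had log2 0.16 (adjusted p = 0.0929).

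Summed over the rings, the 20S genes were at 2993, 2919.9, 3066, 3057 and 2988 FPKM in IgM replicates 1 to 5 and at 3992, 3995, 3957, 4341 and 4142 FPKM in IgG1 replicates 1 to 5. The 19S genes with a Psm symbol (17, without Adrm1 and Sem1) summed to 1826, 1765, 1851, 1785 and 1792 FPKM in IgM. In IgG1 they summed to 2021, 2135, 2092, 2227 and 2251 FPKM. Neither sum overlapped between the groups. The ratio of means, IgG1 over IgM, was 1.36 ± 0.0595 for the 20S rings and 1.19 ± 0.0575 for the 19S cap (SD carried over from the 5 libraries of each group). The 20S sum divided by the 19S sum in the same library was 1.67 ± 0.0281 in IgM, with a range of 1.64 to 1.71, and 1.91 ± 0.0557 in IgG1, with a range of 1.84 to 1.98. The ranges of this ratio did not overlap. Since the ratio is taken within a library, a common scale factor does not move it. The median annotated transcript length was 975 bases for the ring genes and 1526 for the cap genes. The ratio was not recomputed with trends of length and GC content removed. With each library brought to a common total without immunoglobulin genes, the IgG1 over IgM ratios of the sums came to 1.29 for the 20S rings and 1.13 for the 19S cap. These sums were not tested.

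**Figure D3:**
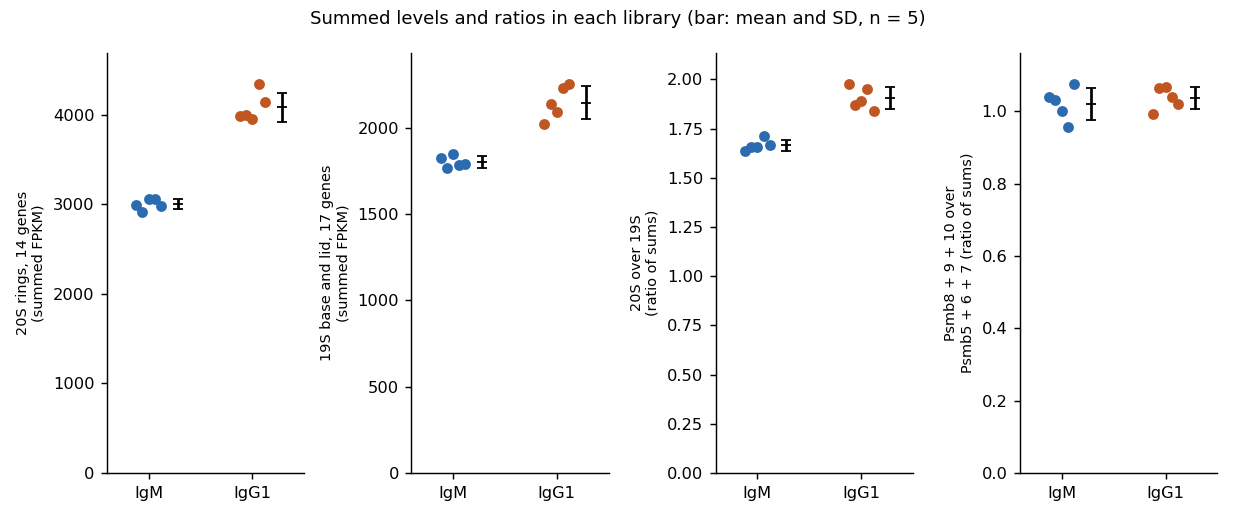
Summed FPKM of the 14 ring genes and of the 17 genes of the 19S cap with a Psm symbol, the ratio of those sums, and the ratio of inducible to constitutive catalytic subunits, each from 0, with 1 point per library and the mean ± SD (n = 5). The 20S over 19S ratio is 1.64 to 1.71 in IgM and 1.84 to 1.98 in IgG1, while the ratio of inducible to constitutive subunits overlaps.

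Assembly factors build the core and the cap and are not part of the finished particle. Of the 7, 3 were higher in IgG1 (Psmd5, Psmg1 and Psmg4), and the others did not pass. The list is too short to read against the shares of genes higher in IgG1. Those were 18.1% of all genes tested and 36.6% of genes with a mean of 20 FPKM or more. Psmd5, Psmg1 and Psmg4 were among the 6 members with the largest log2 differences. Psmd5, which helps to build the 19S base, was at 15.4, 15.7, 23.7, 19.03 and 24.3 FPKM in IgM and 28.2, 36.4, 37.4, 33.3 and 27.4 FPKM in IgG1. The groups did not overlap, and the ratio of means was 1.66 (log2 0.72, SE 0.14, limma adjusted p = 0.000588). The other base chaperones did not pass: Psmd10 (log2 0.03, adjusted p = 0.888) and Psmd9 (log2 0.20, adjusted p = 0.368). Psmg1 pairs with Psmg2 to start the alpha ring. Psmg1 was at 20.9, 16.9, 24.3, 22.7 and 25.0 FPKM in IgM and 42.1, 28.2, 36.6, 31.0 and 35.8 FPKM in IgG1, with no overlap (log2 0.64, SE 0.13, limma adjusted p = 0.000641). Its partner Psmg2 was at 31.9 ± 5.13 and 40.5 ± 9.69 FPKM and did not pass (log2 0.32, limma adjusted p = 0.0801).

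Psmg3 and Psmg4 form the other chaperone pair of the alpha ring. Psmg4 was at 28.5, 22.3, 22.9, 20.98 and 21.4 FPKM in IgM and 27.8, 42.8, 44.0, 41.3 and 29.9 FPKM in IgG1. The groups overlapped, with IgM replicate 1 high and IgG1 replicate 1 low (log2 0.64, SE 0.14, limma adjusted p = 0.00111). Psmg3 did not pass (log2 0.32, adjusted p = 0.0935), with IgG1 replicate 3 lowest of its group at 18.0 FPKM. It passed without that library (adjusted p = 0.0152) or without IgM replicate 4 (adjusted p = 0.0489). Psmg2 passed without IgM replicate 4 (adjusted p = 0.033) or IgG1 replicate 4 (adjusted p = 0.032).

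The activators can bind the barrel in place of the 19S cap. Psme1 and Psme2 encode the alpha and beta chains of PA28, the cap that interferon signals raise and that is known for its part in making peptides for antigen presentation. Psme1 was at 91.2, 95.3, 111, 101 and 88.6 FPKM in IgM and 128, 131, 130.3, 153 and 153 FPKM in IgG1. IgG1 was above IgM in every library (log2 0.51, SE 0.08, limma adjusted p = 4.20e-05). Psme2 was at 206, 204, 217, 204 and 224 FPKM in IgM and 284, 271, 292, 304 and 315 FPKM in IgG1. Its groups were also apart (log2 0.47, SE 0.05, limma adjusted p = 1.86e-06), and Psme2 stood at 2.18 times Psme1 in IgM and 2.11 times in IgG1. Psme3, the nuclear activator PA28 gamma, was at 71.4, 65.5, 77.7, 75.5 and 86.5 FPKM in IgM and 90.1, 90.8, 91.1, 88.1 and 97.1 FPKM in IgG1. Here the IgG1 libraries began just above the highest IgM library (log2 0.28, SE 0.08, limma adjusted p = 0.00652).

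Psme4 differed from the other activators in its direction. It encodes PA200, a large nuclear activator known for roles in spermatogenesis and DNA repair, and lies on chromosome 11 (30771726 to 30880361, plus strand). Its level was 14.5, 13.5, 14.1, 10.8 and 12.7 FPKM in IgM and 6.10, 8.93, 8.22, 11.9 and 6.84 FPKM in IgG1. IgG1 replicate 4 reached into the IgM range and the other 4 IgG1 libraries were below it (log2 -0.61, SE 0.17, limma adjusted p = 0.00683). With trends of length and GC content removed the difference was -0.36 and did not pass (adjusted p = 0.102). That setting took Psme4 at 657 bases, the median of its annotated protein-coding transcripts, which may not be the length expressed.

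Psme2b, a near-identical copy of Psme2 on chromosome 11 (48945354 to 48946190, minus strand), was the other gene that fell. It was at 10.7, 9.87, 7.63, 11.3 and 10.7 FPKM in IgM and 4.43, 5.25, 6.02, 5.52 and 3.81 FPKM in IgG1. The groups did not overlap (log2 -0.88, SE 0.16, limma adjusted p = 0.000358), in the direction opposite to Psme2 itself. Reads may be split between Psme2 and its copy, so the level of Psme2b is uncertain. It also overlaps 9930111J21Rik1 on the same strand, which was at 3.77 in IgM and 1.61 FPKM in IgG1. Psmf1, the inhibitor PI31, was higher in IgG1 at 24.5 ± 3.11 and 32.3 ± 5.13 FPKM (log2 0.39, limma adjusted p = 0.0174). IgG1 replicate 1 was its highest library, at 41.2 FPKM, and the call was lost without that library (adjusted p = 0.0531) or without IgM replicate 2 (adjusted p = 0.0525). The same held with a common total without immunoglobulin genes (adjusted p = 0.0521) and with no filter (adjusted p = 0.0865). Psmc3ip is matched by the rule through its symbol but is a cofactor of meiotic recombination and not a proteasome subunit. It was at 11.4, 14.4, 15.5, 9.68 and 18.1 FPKM in IgM and 18.8, 20.2, 24.5, 32.8 and 24.6 FPKM in IgG1, the largest positive log2 difference of the members (0.77, SE 0.17, limma adjusted p = 0.00153). It overlaps Mlx on the opposite strand, a gene at 57.5 in IgM and 63.6 FPKM in IgG1.

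Other members of the proteasome system that lack the Psm symbol were examined as a list of 9 genes, of which 8 were found and tested and Paaf1 was not analysed here. Of the 8, 5 were higher in IgG1, 0 lower and 3 did not pass, a list too short to read against the shares of all genes tested (18.1% higher and 20.2% lower). Pomp, the maturation factor that closes the barrel, was at 104.6 ± 6.34 in IgM and 144.0 ± 10.1 FPKM in IgG1 (log2 0.46, limma adjusted p = 2.40e-05). The ubiquitin receptor Adrm1 (67.2 ± 3.75 and 88.0 ± 3.51 FPKM, log2 0.38), the small lid subunit Sem1 (72.1 ± 3.76 and 91.2 ± 5.82 FPKM, log2 0.33) and the thioredoxin-like Txnl1 (95.0 ± 3.30 and 117 ± 6.92 FPKM, log2 0.30) were also higher. The deubiquitinase Uchl5 passed with an adjusted p of 0.0368, a call that was lost under 12 of the 21 other settings.

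Of 4 genes that control proteasome transcription, 0 were higher, 1 was lower and 3 did not pass. So short a list cannot be read against the shares of all genes tested (18.1% higher and 20.2% lower). Nfe2l1 encodes Nrf1, the transcription factor known to raise proteasome genes when proteasome activity is short, and was at 21.3 ± 3.00 in IgM and 17.8 ± 2.87 FPKM in IgG1 (log2 -0.25, limma adjusted p = 0.149). Ngly1, the enzyme that removes sugars from Nrf1 during its activation, was lower, at 50.8 ± 1.72 and 35.7 ± 5.34 FPKM (log2 -0.51, limma adjusted p = 0.000602). Nfe2l2 (log2 -0.16) and the protease Ddi2 (log2 0.02) did not pass.

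Of 14 genes of ubiquitin supply, activation and delivery, 4 were higher, 3 lower and 7 did not pass, near the shares of all genes tested (18.1% higher and 20.2% lower), with a median log2 difference of 0.03. Rps27a, which encodes ubiquitin joined to a ribosomal protein, was higher, at 454 ± 26.4 and 681 ± 34.8 FPKM (log2 0.58). Uba1, the main ubiquitin-activating enzyme, was at 59.8 ± 5.19 and 88.3 ± 6.58 FPKM (log2 0.56). Vcp, the ATPase that pulls proteins out of the endoplasmic reticulum, was lower (408 ± 15.5 and 343 ± 17.8 FPKM, log2 -0.25, limma adjusted p = 0.000539), a call that was lost with length and GC trends removed (adjusted p = 0.172). Its cofactor Ufd1 had log2 -0.22 and lost its call under 7 settings.

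Of 5 partners of the immunoproteasome that respond to interferon, 2 were higher and 2 lower, again a list too short to read against the shares of all genes. The peptide transporter genes Tap2 (48.2 ± 4.69 and 82.9 ± 9.10 FPKM, log2 0.77, limma adjusted p = 2.75e-06) and Tap1 (61.8 ± 5.12 and 76.9 ± 6.94 FPKM, log2 0.31, limma adjusted p = 0.00563), neighbours of Psmb8 and Psmb9, were higher in IgG1. The transcription factor Irf1 (20.98 ± 3.36 and 12.9 ± 2.40 FPKM, log2 -0.67, limma adjusted p = 0.00159) and Nlrc5, a transactivator of antigen presentation genes (7.55 ± 1.01 and 3.10 ± 0.882 FPKM, log2 -1.08, limma adjusted p = 0.000209), were lower.

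**Figure D4:**
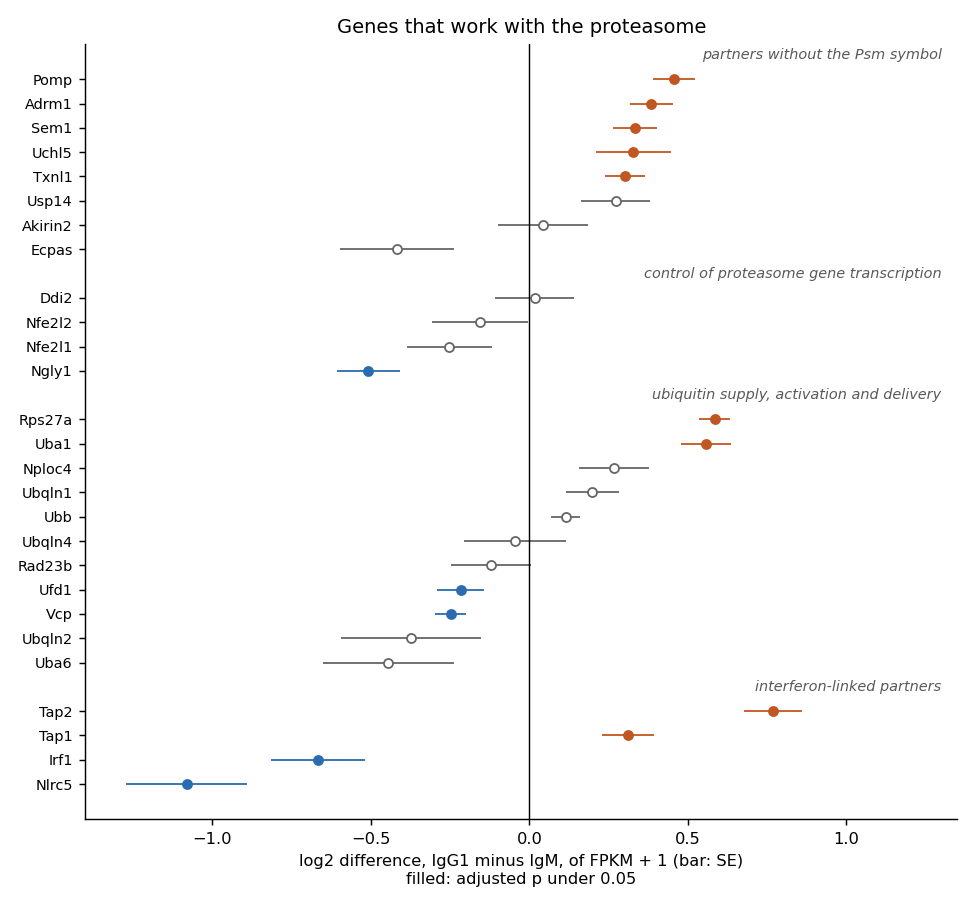
Log2 difference in FPKM plus 1, IgG1 minus IgM, of genes that work with the proteasome (x axis; bars are SE, n = 5 libraries a group), by list; filled points passed the adjusted p of 0.05. In the interferon-linked list Tap2 (0.77) and Tap1 (0.31) lie to the right of 0, and Irf1 (-0.67) and Nlrc5 (-1.08) to the left.

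Transcript length was taken as the median over a gene's annotated protein-coding transcripts, or over all its transcripts where it had none. It need not be the length of the transcript expressed. Psme4, which encodes a large protein, was taken at 657 bases, and Psmd2 at 659. Short transcripts by this measure were called higher in IgG1 more often than long ones over the whole data set, and the members were short by it. The median transcript length was 1169.8 bases for the members tested and 1850 bases for all genes tested, while the median GC content was close (50.4% and 50.2%). Among all genes tested, 27.8% of those under 1000 bases were higher in IgG1, 26.3% of those from 1000 to 1500, 16.0% of those from 1500 to 2500 and 9.09% of those of 2500 bases or more. In the same bins 15 of 21, 11 of 14, 9 of 11 and 2 of 2 members were higher. Restricted to a mean of 20 FPKM or more, the shares of all genes were 45.1%, 44.6%, 30.4% and 22.7%, beside 15 of 18, 10 of 13, 9 of 11 and 2 of 2 members. After trends with length and GC content were removed from each library, 39 members were higher, 1 was lower, and their median log2 difference was 0.41, against 0.06 for all genes tested. The median for the 20S rings was then 0.47, with 13 of 14 higher, and for the 19S cap 0.34, with 14 of 17 higher, so that the medians of core and cap lay closer together. The inducible catalytic subunits were at a median of 0.42, with 3 of 3 higher. Psmc6 passed under this setting (log2 0.37, adjusted p = 0.00333), and Psmc3 did not (adjusted p = 0.139).

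**Figure D5:**
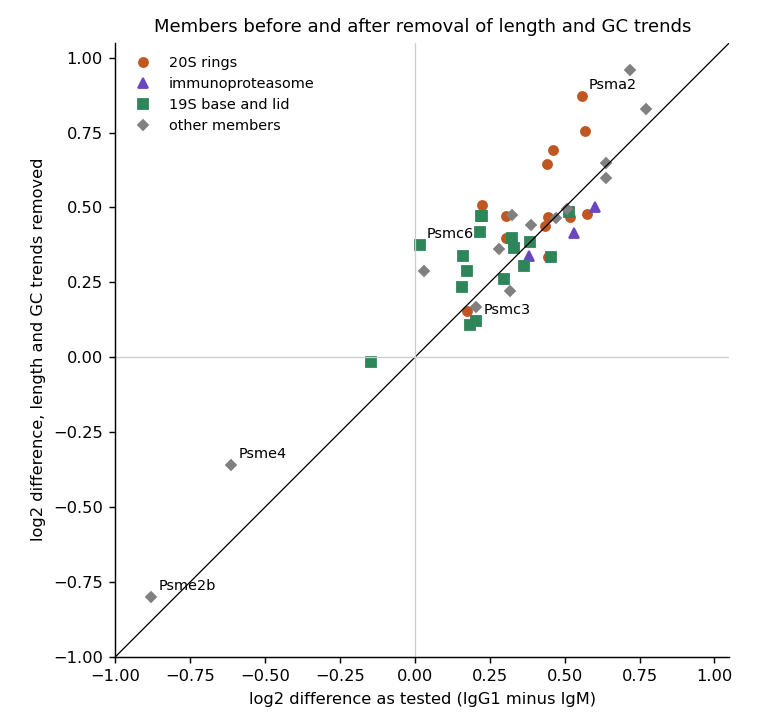
Log2 difference of each member as tested (x axis) and after removal of the trends with transcript length and GC content (y axis), by role; the diagonal marks equal values. Most members stay above 0 on both axes, Psme4 moves from -0.61 to -0.36 and Psmc6 from 0.02 to 0.37.

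Promoter sequences, from 250 bases before to 50 bases after the transcription start, were found in RefSeq (GRCm38.p6) for 42 of the 50 members, with 45 promoters among them and 32851 in all. They were searched on both strands for 4 motifs. The shares of all promoters cover genes of any level in these cells, and promoters of genes of matched level were not compared. The antioxidant response element, TGACNNNGC, to which Nrf1 binds, was in 13.3% of the member promoters and 12.4% of all promoters. Those members were Psmb5, Psmb6, Psmc6, Psmd9, Psmd12 and Psme4. The windows of the constitutive catalytic subunits that hold it, and that of Psme4, which was lower in IgG1, are shown on the strand of the gene with the element in capitals.
Psmb5: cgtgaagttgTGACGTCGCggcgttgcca
Psmb6: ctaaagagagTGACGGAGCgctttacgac
Psme4: cgctgcggctGCAGCGTCAccagaagagc
The Psmb5 window (chr14:54618024-54618052, minus strand) has its element starting 47 bases before the start, and the Psmb6 window (chr11:70525338-70525366, plus strand) 9 bases before it. The Psme4 window (chr11:30771758-30771786, plus strand) holds the element as its reverse complement, starting 7 bases before the start. Thus the same letters stood in promoters of genes that were higher (Psmb5 and Psmb6) and of 1 gene that was lower.

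The ETS motif CCGGAAG was in 35.6% of the member promoters, those of 15 members, and in 8.86% of all promoters. It was found in 9 genes of the 19S cap and, among the ring genes, in Psma6 only. The windows of Psma6 and Psmd13, which had the largest differences of the alpha ring and of the lid, and of the chaperone Psmg1 are shown with the motif in capitals.
Psma6: cgccggtgctCCGGAAGcagtagccat
Psmd13: gcccgcggtgCCGGAAGtgagcgagca
Psmg1: tcgcggcggaCCGGAAGctcttaggtt
Psma6 held 3 matches, and the window shown (chr12:55398813-55398839, plus strand) has its motif starting 2 bases before the start. The Psmd13 window is chr7:140882378-140882404 on the plus strand and the Psmg1 window chr16:95991013-95991039 on the minus strand. The motif letters also stood in promoters of Psmc1, Psmc6, Psmd4, Psmd6, Psmd11 and Psmg3, which did not pass the test, and of Psme4, which was lower. The CCAAT box, CCAAT, was in 33.3% of the member promoters and 37.4% of all.

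The interferon-stimulated response element, GAAA followed by any 2 bases and GAAA, was in 11.1% of the member promoters (5 of 45) and 3.44% of all promoters. It stood in promoters of Psmb3, Psme1 and Psmg4, which were higher in IgG1, and of Psmd4 and Psmd9, which did not pass the test. It is shown as its reverse complement in capitals for the PA28 alpha gene, where it starts 10 bases after the start (chr14:55578493-55578522, plus strand), and for Psmb3, where it starts 163 bases before the start (chr11:97703261-97703290, plus strand).
Psme1: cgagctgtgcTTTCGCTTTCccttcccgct
Psmb3: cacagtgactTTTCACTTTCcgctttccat
Psmb9 had a promoter that was searched, since it held a CCAAT box, and no match to the interferon element was found in it. Psmb8 and Psmb10 had no match to any motif searched. They may be among the members for which no promoter was found, so the lack of a match cannot be read for them. A motif match describes letters in a window and was not tested as a binding site.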

How the data were processed

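RNA levels were measured in 10 libraries of sorted plasma cells, grouped by their titles. Per the labels' protocols, the miRNeasy Micro kit was used for RNA and the SMART-Seq mRNA HT LP kit for libraries, which are not stranded. Per the submitters' processing notes, the authors worked with GRCm38 and with HISAT2 2.1.0, Cuffdiff and Cufflinks 2.2.1, and their settings and annotation are not given in the sources. The deposited files hold FPKM, 1 file per library, per the file headers. As FPKM is a share of a library, very abundant immunoglobulin transcripts can lower all others. The total FPKM without them was 453850 to 472314 in the IgM libraries and 478251 to 505567 in the IgG1 libraries. It did not follow their share in every library: IgG1 replicates 2 and 3 had totals of 479756 and 478251 at immunoglobulin shares of 64.0% and 73.5%.

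Of 47719 identifiers, 47305 matched GENCODE M21, which gave symbols, gene types and coordinates counted from 1, and 414 did not. Genes were kept at a mean of 1 FPKM or more and tested as log2 values of FPKM with a pseudocount of 1, a scale that understates changes of low genes, with limma 3.58.1 in R 4.3.3 (trend and robust, group as the only term, two-sided). P-values were Benjamini-Hochberg adjusted over 9900 genes, with a threshold of 0.05. Sums and ratios carry no test. The fit was checked on simulated data. Depth was estimated from FPKM steps assuming fragments of 200 bases, and gives no counting interval. Of the members, 9 overlap the interval, introns included, of an annotated gene with a mean of at least 1 FPKM in either group. Whether exons overlap was not examined. Reads from a shared exon on opposite strands cannot be told apart without strand, and for Psma2 and Psme2b the overlapping gene is on the same strand.

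All members were accounted for. Values in every library are given for the catalytic subunits, the activators and the 6 members with the largest difference in each direction (2 were lower). From the other lists up to 4 genes by smallest p are named, and others chosen after their values were seen. Some genes of these lists are counted but not reported here by name. The members, lists and tests were chosen with earlier results of these data known. Trends with length and GC content were removed with natural splines within each library (4 degrees of freedom; values for 99.8% of tested genes). Other alternatives were pseudocounts of 0.1 and 5, no filter, a filter at 5 FPKM, scaling by median ratios, a common total without immunoglobulin genes (Jchain counted with them), quantile normalization, eBayes without trend and robust, a replicate block, and libraries left out. Python 3.11.15, pandas 2.3.3, numpy 2.4.6 and matplotlib 3.10.9 were used.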

Additional observations from a re-analysis of the deposited data

Results flagged for a closer look

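In 7 of the 96 combinations of a tested member and a group, the highest or lowest library stood apart, with a gap to its neighbour above 0.71 of the group's whole range. Chance flags about 1 in 20 such groups. In IgG1 replicate 1, Psmc1 was low at 143 FPKM (the other libraries 172 to 181), Psmd4 high at 109 FPKM (85.6 to 91.7) and Psmf1 high at 41.2 FPKM (28.2 to 31.4). In IgG1 replicate 4, Psma6 was high at 196 FPKM (165 to 172) and Psmb4 low at 123 FPKM (137 to 142). Psmg3 was low in IgG1 replicate 3 at 18.0 FPKM (26.5 to 28.5), and Psmg4 was high in IgM replicate 1 at 28.5 FPKM (20.98 to 22.9). Without the library that stood apart, Psmc1 (adjusted p = 0.0121) and Psmg3 (adjusted p = 0.0152) passed limma's test and Psmf1 (adjusted p = 0.0531) did not.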

How the results depend on the processing

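Over 21 alternatives, 46 of the 48 members tested kept the sign of their difference (the exceptions were Psmc6 and Psmd10), 30 of the 39 that passed did so under all 21, and 33 passed without each library in turn. The count of members higher in IgG1 was 37 with pseudocounts of 0.1 or 5, 38 with a filter at 5 FPKM, 40 with median-ratio scaling, 32 with quantile normalization, 32 with eBayes without trend and robust, 30 with no filter, 30 with a common total without immunoglobulin genes, 32 without IgG1 replicates 4 and 5, and 33 to 37 without each library in turn, where 2 were lower each time. Over all genes, leaving out each library gave 1631 to 1712 higher and 1768 to 1922 lower. With length and GC trends removed, 1319 genes and 1 member were lower. The median over all genes was -0.05 as tested, 0.06 with quantile normalization and with those trends removed, and -0.12 with the common total. With the common total, the IgG1 over IgM ratio of summed FPKM was 1.29 for the 20S rings, 1.13 for the 19S cap, 1.12 for its base and 1.25 for all members. For the 19S cap, 7 of 17 members were then higher, as with quantile normalization and with no filter. The causes of these changes were not tested. IgM and IgG1 libraries share replicate numbers, and the correlations of same-numbered libraries were -0.0357 to 0.0966. IgM replicates 1, 3 and 4 correlated best with the IgG1 library of their own number, and IgM replicates 2 and 5 did not. With the replicate block, 1749 genes were higher and 1952 lower, 35 members were higher and 2 lower, and Psmb4 (adjusted p = 0.0681) and Psmc2 (adjusted p = 0.0512) did not pass. Depth limits low members most, and FPKM gives no counting error.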
